A study of Mus musculus with 20 samples.

Results

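The bone morphogenetic protein (BMP) signal was examined in mouse embryonic stem cells that had first been steered toward mesendoderm, the common progenitor of mesoderm and endoderm. Wells were taken as the deposited assignments give them: cells whose assignment had passed were joined to the design table, their molecule counts were summed per well, and wells with at least 5 cells were kept. This left 300 of 384 wells with 2633 cells, of which 157 wells (1424 cells) were Bmp plus and 143 wells (1209 cells) were Bmp minus. The whole series holds 20 samples and 27146 cells in its single-cell libraries, and the wells described here were 1 pooled library of 12781 cells. Bmp was 1 of 7 signals, each plus or minus, that made 128 combinations of 2 to 4 wells each in the deposited design table. The library's label gives 144 conditions and 5 pathways, in words shared with the other single-cell libraries, and the table was followed. The other 6 were retinoic acid (RA), Wnt, TgfB, Fgf, Notch and Shh (Sonic hedgehog).

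All wells of both groups held the same male 129P2/OlaHsd line and shared the same 24 h of induction. It used CD 2665, an antagonist of RA receptors, Activin A, GSK3 inhibitor XV, which activates Wnt signalling, Dorsomorphin, an inhibitor of BMP receptors, and Fgf2. BMP was therefore inhibited in every well during induction, and the wells differed only in the 24 h that followed. The compounds behind plus and minus of this design are not named in its table. Bmp minus may thus be an inhibitor and not the absence of a ligand, and the difference below is plus over minus and not plus over untreated. Each well was tagged with barcodelets, short synthetic RNAs transfected before harvest that carry the identity of the well into the pooled library. A different set of barcodelets marked the Bmp plus and the Bmp minus wells, so an effect of a tag and an effect of Bmp cannot be told apart. Wells are separate cultures only as far as the labels say.

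BMP ligands bind a complex of type I and type II receptors, which phosphorylate the receptor-regulated SMADs (SMAD1, SMAD5 and SMAD9). These join SMAD4, enter the nucleus and activate a small set of targets found in many tissues, among them the ID proteins, which block basic helix-loop-helix transcription factors, and the inhibitory SMADs, which damp the pathway. In the gastrulating mouse embryo, high BMP signalling is known to favour lateral and extraembryonic mesoderm and surface ectoderm. Low BMP signalling, kept down by secreted antagonists of the node, is known to favour paraxial and axial mesoderm and neural tissue.

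Of the 12781 cells, 2899 (22.7%, Wilson 95% interval 22.0% to 23.4%) had a passed assignment. The other cells were not used, and no doublet caller was run. The used wells held 27701 to 332644 UMIs (unique molecular identifiers, which count molecules). They averaged 9.07 cells in Bmp plus wells and 8.45 cells in Bmp minus wells (2-sided permutation test over wells of 100000 resamples, p = 0.119; Benjamini-Hochberg adjusted over 9 measures, 0.179). The share of mitochondrially encoded UMIs was 4.73 ± 0.42% in Bmp plus wells and 4.95 ± 0.65% in Bmp minus wells (SD; permutation adjusted p = 0.00153). Library barcodes were shared by 111 cells with the mixed experiment and by 151 with the germ layer experiment, the other single-cell libraries of the series. Pou5f1, a general pluripotency factor, averaged 68.9 ± 46.1 CPM (counts per 1e6 UMIs of the well) in Bmp plus wells and 66.3 ± 43.9 CPM in Bmp minus wells. Mixl1, a streak and mesendoderm factor, averaged 112 ± 117 CPM in Bmp plus wells and 102 ± 118 CPM in Bmp minus wells. T, the defining gene of the primitive streak, was present in both groups, and Sox17, an endoderm factor, averaged 21.7 ± 31.6 CPM in Bmp plus wells and 32.1 ± 58.9 CPM in Bmp minus wells. Eomes, a T-box gene of the streak and mesendoderm, had no UMI in 107 of 157 Bmp plus wells and 82 of 143 Bmp minus wells, and Foxa2, an endoderm and node factor, had none in 101 Bmp plus wells and 67 Bmp minus wells.

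Bmp changed 682 of the 2328 genes that passed the filter on low counts, which is 29.3%, with 313 higher (13.4%) and 369 lower (15.9%) in Bmp plus wells. These are edgeR quasi-likelihood tests with the other 6 signals as additive terms, at a Benjamini-Hochberg adjusted p under 0.05 over all tested genes. Most changes were small, with a median size of 0.18 on the log2 scale among the changed genes. A change over 2-fold was found for 25 genes, 18 higher and 7 lower. Under 2 other scalings the split was 352 higher and 297 lower (RLE) and 358 higher and 305 lower (DESeq2). In these sums over cells, more cells of a type and more RNA per cell cannot be told apart.

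Most leading risers were known targets of BMP signalling. After 24 h of treatment, direct and later responses cannot be told apart. Id1 (ENSMUSG00000042745, GRCm38 chr2:152736251-152737410, plus strand), an inhibitor of differentiation, ranged over 67.4, 247 and 739 CPM (lowest, median and highest) in Bmp plus wells and over 0, 60.3 and 251 CPM in Bmp minus wells. All 157 Bmp plus wells lay above the Bmp minus median, and 76 of them lay above the highest Bmp minus well. The rise was 1.87 ± 0.08 on the log2 scale (SE; adjusted p = 1.43e-70), and the sum over wells was higher in Bmp plus in 61 of the 61 settings of the other signals that held both Bmp levels.

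Id3, a second member of the ID family, had the highest level of the group, with 73.5, 559.7 and 1359 CPM in Bmp plus wells and 27.5, 180.0 and 569.8 CPM in Bmp minus wells. The groups overlapped, with 155 of 157 Bmp plus wells above the Bmp minus median but only 76 above every Bmp minus well. The rise was 1.58 ± 0.07 (adjusted p = 1.2e-66). Id2, another member, stood at 0, 183 and 823 CPM in Bmp plus wells and at 0, 44.6 and 244 CPM in Bmp minus wells, a rise of 1.81 ± 0.10 (adjusted p = 1.76e-53).

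Msx2 (chr13:53466884-53473074), a homeobox repressor of limb, skull and neural crest, had the largest rise of the named genes in the filtered test, 2.24 ± 0.12 (adjusted p = 4.97e-61). Its wells stood at 26.4, 114 and 275 CPM in Bmp plus and at 0, 14.9 and 158 CPM in Bmp minus, where 32 of 143 wells had no UMI of it. Its paralog Msx1 stood at 27.8, 180.4 and 567 CPM in Bmp plus wells and at 0, 48.3 and 216 CPM in Bmp minus wells (rise 1.68 ± 0.10). The T-box factor Tbx3 stood at 43.2, 134 and 286 CPM in Bmp plus wells and at 0, 35.9 and 166 CPM in Bmp minus wells (rise 1.88 ± 0.09, adjusted p = 1.81e-66). No Bmp plus well lacked Msx1, Msx2 or Tbx3, and all 157 lay above the Bmp minus median for Msx2 and for Tbx3. Exons of Tbx3 overlap those of its antisense partner Tbx3os1, and the strand setting of the counting is unknown here.

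Feedback inhibitors of the pathway rose as well. Bambi, a decoy receptor that lacks the kinase domain, stood at 0, 136 and 546 CPM in Bmp plus wells and at 0, 37.7 and 180.0 CPM in Bmp minus wells (rise 1.86 ± 0.10, adjusted p = 1.09e-54). Smad7, an inhibitory SMAD that acts on BMP and on TGF-beta receptors, stood at 0, 92.2 and 177 CPM in Bmp plus wells and at 0, 29.5 and 179 CPM in Bmp minus wells (rise 1.38 ± 0.09, adjusted p = 1.76e-43). For Smad7 no Bmp plus well exceeded the highest Bmp minus well, although 152 of 157 lay above the Bmp minus median.

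**Figure D1:**
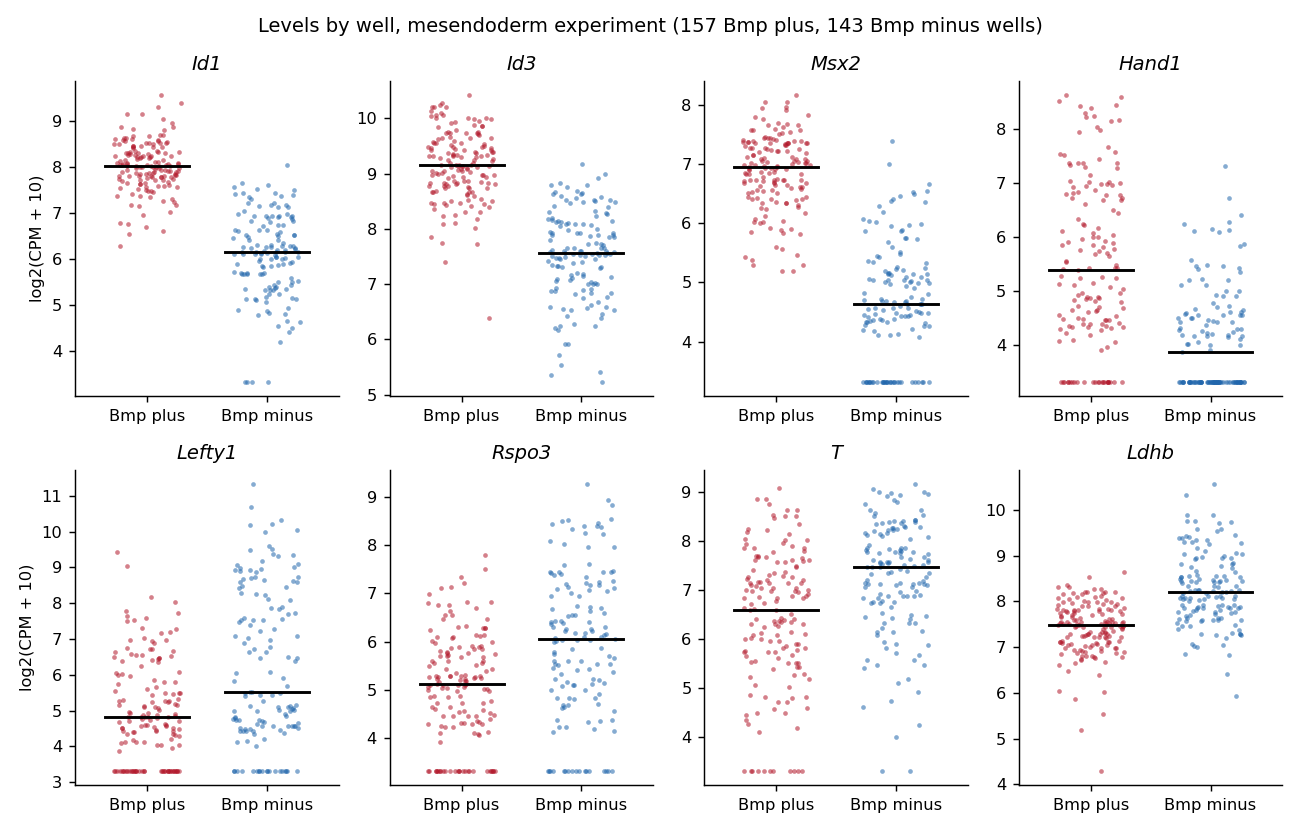
Levels of 8 genes in every used well on a log2(CPM + 10) axis, with the 157 Bmp plus wells left of the 143 Bmp minus wells in each panel; each point is a well and the black line the median. For Id1 the Bmp plus median was 247 CPM and the Bmp minus median 60.3 CPM, and for Msx2 the medians were 114 CPM and 14.9 CPM.

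Promoter windows of 300 bases around the start sites, from RefSeq on GRCm38.p6, are printed for the Id and Msx genes that matched, because BMP-responsive SMADs are known to bind GC-rich elements and short SMAD boxes. The window of Id2 is chr12:25096043-25096342 (minus strand), that of Id3 is chr4:136143572-136143871 (plus strand), that of Msx1 is chr5:37824536-37824835 (minus strand) and that of Msx2 is chr13:53472731-53473030 (minus strand). Capitals mark GGCGCC, which reads the same on both strands.
Id2: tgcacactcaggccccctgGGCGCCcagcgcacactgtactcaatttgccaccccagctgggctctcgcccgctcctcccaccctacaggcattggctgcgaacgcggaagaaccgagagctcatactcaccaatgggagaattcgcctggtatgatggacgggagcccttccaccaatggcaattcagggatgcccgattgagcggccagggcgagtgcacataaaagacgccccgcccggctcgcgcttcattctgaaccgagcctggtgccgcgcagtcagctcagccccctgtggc
Id3: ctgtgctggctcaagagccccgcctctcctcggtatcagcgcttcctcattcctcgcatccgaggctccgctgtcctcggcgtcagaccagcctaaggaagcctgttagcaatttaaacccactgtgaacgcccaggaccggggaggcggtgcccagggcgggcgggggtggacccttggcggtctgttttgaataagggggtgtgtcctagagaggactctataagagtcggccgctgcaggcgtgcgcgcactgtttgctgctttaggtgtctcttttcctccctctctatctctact
Msx1: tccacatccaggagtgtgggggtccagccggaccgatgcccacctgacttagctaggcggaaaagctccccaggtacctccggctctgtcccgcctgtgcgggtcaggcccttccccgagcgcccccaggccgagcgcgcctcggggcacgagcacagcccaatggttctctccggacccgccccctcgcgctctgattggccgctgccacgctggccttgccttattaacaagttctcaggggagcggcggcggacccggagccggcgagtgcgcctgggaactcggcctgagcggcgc
Msx2: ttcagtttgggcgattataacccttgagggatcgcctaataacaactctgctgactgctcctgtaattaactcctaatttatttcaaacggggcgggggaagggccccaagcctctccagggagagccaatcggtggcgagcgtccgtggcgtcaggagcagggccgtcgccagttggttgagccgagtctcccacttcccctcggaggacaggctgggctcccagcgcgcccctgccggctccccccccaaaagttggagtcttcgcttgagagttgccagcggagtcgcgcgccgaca
The window of Id2 held 1 GGCGCC, and those of Id3, Msx1 and Msx2 held none. Over 32544 RefSeq promoter windows of this length, 11.9% held GGCGCC. The SMAD box, searched as GTCT on both strands (GTCT or AGAC), was found 1 time in Id2, 3 times in Id3, 2 times in Msx2 and not in Msx1, and in 88.0% of all windows. Of 15 risers looked up 8 matched, and among these 8 windows 3 held GGCGCC (Id2, Gata3 and Hand2) and 6 held a SMAD box, the windows without one being those of Msx1 and Hand2. Neither motif contains the other. A match is a description of these letters, and the binding of SMADs was not measured.

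Many regulators of this system are expressed too low to pass the filter, so the lists below are described from the same test without it, in which 1442 of 18974 genes (7.6%) passed, 791 higher (4.17%) and 651 lower (3.43%). Most of these genes have few UMIs. Among the 11292 with a mean of at least 2 CPM, 6.46% rose and 4.94% fell. For genes with few UMIs edgeR draws the fitted change toward 0, and the SE beside it does not allow for this. Smad9, for example, averaged 2.46 CPM in Bmp plus wells and 0.358 CPM in Bmp minus wells, at a fitted change of 1.28. Such sizes are not ratios of the means. UMI counts of a gene given below for a group are sums over its wells and are not scaled for depth. Bmp plus had more wells (157 against 143) and more UMIs per well (means of 113557 and 103655). Several genes stand in more than 1 list: Msx1 and Msx2 are BMP targets, lateral mesoderm and neural crest genes, and Gata2 and Gata3 are BMP targets, surface ectoderm and trophoblast genes. Their counts are therefore not independent.

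Of 20 shared BMP targets, 19 rose and none fell, with a median of 1.71 against a median of 0.00092 over all genes in the same test. In the filtered test 9 were tested and 9 rose; members that passed the filter only through their level in Bmp plus wells had to differ. Smad6, the BMP-specific inhibitory SMAD, stood at 0, 28.3 and 115 CPM in Bmp plus wells and at 0, 0 and 49.8 CPM in Bmp minus wells (rise 1.89 ± 0.16, adjusted p = 5.71e-31). Gata3, a GATA factor of surface ectoderm and trophoblast, rose by 1.91 ± 0.19, with 464 UMIs in Bmp plus wells and 89 in Bmp minus wells. Gata2 rose by 1.85 ± 0.29 and Tfap2a, an AP-2 factor of surface ectoderm and neural crest, by 1.74 ± 0.37. The exception was Atoh8, at -0.17 ± 0.30 (adjusted p = 0.72).

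The ligands (median -0.06) and the receptors and co-receptors (median -0.08) moved less than the targets (median 1.71). Smad6, Smad7 and Bambi stand both among the components below and among the targets. Among 14 tested ligands Bmp4 alone passed, at 0, 12.0 and 90.0 CPM in Bmp plus wells and 0, 0 and 81.1 CPM in Bmp minus wells (rise 0.77 ± 0.19, adjusted p = 0.000236). Bmp7 (-0.06 ± 0.13) and Bmp2 (0.03 ± 0.22) did not pass. Among 12 receptors and co-receptors none rose and Rgma, a co-receptor, fell by 1.03 on the log2 scale (SE 0.20), with 98 UMIs in Bmp plus wells and 191 in Bmp minus wells. The type I receptor Bmpr1a was at 0.20 ± 0.08 (adjusted p = 0.094) and the type II receptor Bmpr2 at 0.21 ± 0.13 (adjusted p = 0.385).

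Among 19 transducers 4 rose and 1 fell. The risers were the inhibitory Smad6 and Smad7, Smad9, a receptor-regulated SMAD that is itself a BMP target (1.28 ± 0.48, 42 UMIs in Bmp plus wells and 5 in Bmp minus wells), and the phosphatase gene Ctdsp1 (0.44 ± 0.12). Zeb2, a SMAD-binding repressor, fell to 11.9 ± 12.9 CPM in Bmp plus wells, against 18.5 ± 16.0 CPM in Bmp minus wells (-0.62 ± 0.16). The signal carriers themselves did not pass, with Smad1 at -0.05 ± 0.10, Smad5 at -0.12 ± 0.11 and Smad4 at -0.08 ± 0.08.

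Antagonists and extracellular modulators were split, 3 higher and 4 lower of 22. Besides Bambi, Fstl1 (a follistatin-like secreted protein) rose by 0.57 ± 0.08 in the filtered test and Chrdl2, a chordin-like antagonist, passed on 13 UMIs in Bmp plus wells and 1 in Bmp minus wells. Fst, follistatin, which binds Activin and BMPs, stood at 0, 40.3 and 470.2 CPM in Bmp plus wells and at 0, 72.2 and 510.3 CPM in Bmp minus wells, a change of -0.84 ± 0.13 in the filtered test (adjusted p = 1.35e-08). Cer1, an antagonist of Nodal and BMP, had 0 UMIs in Bmp plus wells and 16 in Bmp minus wells. Smoc1 (-0.55 ± 0.21) and Sost (2 UMIs in Bmp plus wells and 28 in Bmp minus wells) fell too. Nog, noggin, was at 0.61 ± 0.31 and did not pass (adjusted p = 0.0696).

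**Figure D2:**
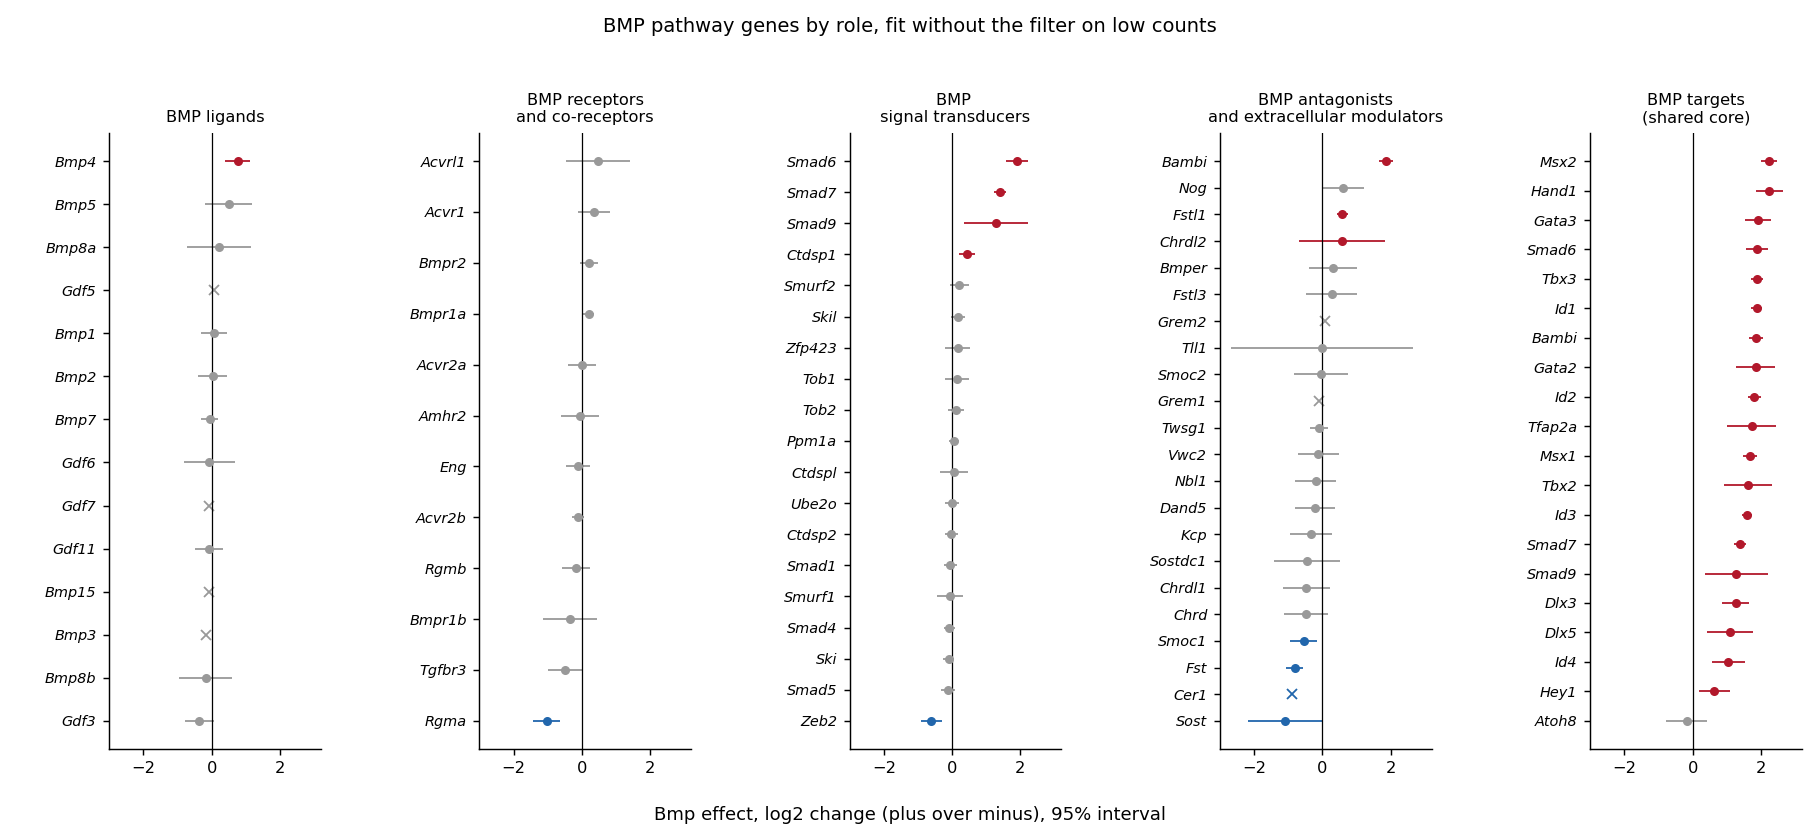
Bmp effect on the genes of the BMP pathway by role, as log2 of plus over minus with 95% intervals, from the test without the filter on low counts. For genes with few UMIs the fitted values are drawn toward 0, and the intervals do not allow for this. Red points passed as higher, blue as lower and grey did not pass; crosses mark genes with too few UMIs for an interval, where the fitted value is no measure of size. All target genes except Atoh8 sit to the right of 0; Id1 stands at 1.88 and Smad1 at -0.05.

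The other leading risers were Hand1, which is one of the shared targets, and Sct and Sp6, which are not. Hand1, a basic helix-loop-helix factor of lateral and extraembryonic mesoderm and trophoblast, stood at 0, 32.2 and 385 CPM in Bmp plus wells and at 0, 4.73 and 149 CPM in Bmp minus wells (rise 2.20 ± 0.20, adjusted p = 2.77e-26). Its wells overlapped widely, since 24 of 157 Bmp plus wells and 71 of 143 Bmp minus wells had no UMI of it. Sct, which encodes the hormone secretin, stood at 0, 64.1 and 241 CPM in Bmp plus wells and at 0, 10.1 and 140.4 CPM in Bmp minus wells (rise 1.81 ± 0.14). Sp6, a zinc finger factor of epithelia, stood at 0, 37.6 and 263 CPM in Bmp plus wells and at 0, 11.6 and 100.5 CPM in Bmp minus wells (rise 1.52 ± 0.15). Exons of Sp6 overlap the opposite-strand gene Gm11532.

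Among the leading fallers were known targets of Nodal and genes of paraxial and caudal tissue. Lefty1 (chr1:180935022-180938400), a secreted Nodal inhibitor and Nodal target, stood at 0, 18.1 and 678 CPM in Bmp plus wells and at 0, 36.1 and 2563 CPM in Bmp minus wells. It fell by 1.94 on the log2 scale (SE 0.16, adjusted p = 1.78e-27), with means of 45.9 ± 82.8 CPM in Bmp plus wells and 207 ± 351 CPM in Bmp minus wells. Its neighbour and relative Lefty2 stood at 0, 18.0 and 399.8 CPM in Bmp plus wells and at 0, 55.5 and 975 CPM in Bmp minus wells (-1.23 ± 0.15). No Bmp plus well reached the highest Bmp minus well for either gene, but the groups overlapped over most of their range.

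Rspo3, a secreted enhancer of Wnt signalling in presomitic mesoderm, stood at 0, 24.5 and 211 CPM in Bmp plus wells and at 0, 56.2 and 607 CPM in Bmp minus wells (-1.40 ± 0.14, adjusted p = 2.25e-20). Hoxaas3, a long noncoding RNA of the Hoxa cluster whose exons overlap Hoxa3 and Hoxa7, fell by 1.15 (SE 0.16). Sp5, a Wnt-induced repressor, stood at 0, 72.5 and 358 CPM in Bmp plus wells and at 11.9, 147 and 592 CPM in Bmp minus wells (-0.93 ± 0.09). T stood at 0, 86.4 and 533 CPM in Bmp plus wells and at 0, 167 and 559.9 CPM in Bmp minus wells (-0.88 ± 0.10, adjusted p = 4.98e-15).

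Metabolic and structural genes were also among the leading fallers. Ldhb, the heart-type subunit of lactate dehydrogenase, stood at 9.72, 168 and 387 CPM in Bmp plus wells and at 50.6, 285 and 1501 CPM in Bmp minus wells (-1.04 ± 0.07, adjusted p = 6.12e-33). Of 157 Bmp plus wells, 148 lay below its Bmp minus median. Sms, spermine synthase, stood at 27.8, 91.7 and 273 CPM in Bmp plus wells and at 30.0, 178 and 545 CPM in Bmp minus wells (-0.94 ± 0.07). Mylpf, a myosin light chain, fell by 1.09 (SE 0.22) and S100g, a calcium-binding protein, by 1.07 (SE 0.28), the second with no UMI in 89 Bmp plus and 73 Bmp minus wells.

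Genes of lateral and extraembryonic mesoderm rose, 11 of 20 with none falling and a median of 0.69. Hand2, a paralog of Hand1, rose by 1.78 ± 0.38 (100 UMIs in Bmp plus wells and 14 in Bmp minus wells). Foxf1, a forkhead factor of splanchnic mesoderm, averaged 22.7 ± 30.3 CPM in Bmp plus wells and 5.06 ± 10.2 CPM in Bmp minus wells (rise 1.59 ± 0.24, adjusted p = 6.86e-12). Prrx2, a homeobox gene of limb and lateral mesenchyme, stood at 0, 32.7 and 154 CPM in Bmp plus wells and at 0, 8.49 and 105 CPM in Bmp minus wells (rise 1.54 ± 0.17). Isl1, a LIM-homeobox gene of the second heart field, rose by 1.46 ± 0.24 and Tbx20 by 1.56 ± 0.31, while Gata6 was at 0.03 ± 0.16 (adjusted p = 0.952).

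Few haematoendothelial and cardiac genes passed. Of 16 haematoendothelial genes, Gata2 and Runx1 (0.71 ± 0.16) rose and none fell, and the defining genes Kdr (0.36 ± 0.33), Tal1 (-0.12 ± 0.42) and Etv2 (-0.22 ± 0.27) did not pass at means below 3 CPM. Of 12 cardiac genes 2 rose, Isl1 and the atrial light chain Myl7 (0.66 ± 0.20), and Myl4 fell (-0.68 ± 0.35). Of 18 genes of parietal and visceral endoderm, which are extraembryonic endoderm, 2 fell and none rose.

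Surface ectoderm and amnion genes were 8 higher and 4 lower of 19. The homeobox genes Dlx3 (1.26 ± 0.20) and Dlx5 (1.09 ± 0.34) rose, as did the simple keratins Krt18, at a median of 156 CPM in Bmp plus wells and 90.5 CPM in Bmp minus wells, and Krt8, at 206 CPM in Bmp plus wells and 124 CPM in Bmp minus wells. Wnt6, at medians of 46.2 CPM in Bmp plus wells and 78.9 CPM in Bmp minus wells, Igfbp3, Krt7 and Krt19 fell. Trophoblast genes were 8 higher and 2 lower of 14, with Cdx2, a caudal homeobox gene also used in posterior embryonic tissue, up by 0.43 ± 0.10 in the filtered test and Eomes down (-0.87 ± 0.21). Neural crest and border genes were 6 higher and none lower of 12, among them Snai2 (1.33 ± 0.27) and Pax3 (0.89 ± 0.26). Primordial germ cell genes were 2 higher and 2 lower of 10: Prdm1, a specifier of the germ line, rose by 1.01 ± 0.25, and Dppa3 fell by 0.98 (SE 0.27).

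Paraxial mesoderm genes fell, 10 of 16 with none rising and a median of -1.04. The Notch ligands of the presomitic mesoderm led them. Dll1 averaged 2.76 ± 6.58 CPM in Bmp plus wells and 15.8 ± 26.8 CPM in Bmp minus wells (-1.97 ± 0.27, adjusted p = 7.16e-17), and Dll3 averaged 4.90 ± 7.93 CPM in Bmp plus wells and 18.6 ± 23.9 CPM in Bmp minus wells (-1.71 ± 0.21). Tbx6, the T-box factor of presomitic mesoderm, had 40 UMIs in Bmp plus wells and 120 in Bmp minus wells (-1.58 ± 0.28). Tcf15, a factor of the somite, stood at 0, 0 and 74.9 CPM in Bmp plus wells and at 0, 15.9 and 345 CPM in Bmp minus wells (-1.52 ± 0.21). Foxc1 (-1.47 ± 0.31), Meox1 (-1.22 ± 0.37) and Hes7, the segmentation clock repressor (-1.14 ± 0.32), fell as well.

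Genes of the anterior axial mesendoderm and node were 1 higher and 7 lower of 14. Gsc, an organizer homeobox gene, averaged 3.65 ± 7.21 CPM in Bmp plus wells and 13.0 ± 28.7 CPM in Bmp minus wells (-1.46 ± 0.26). Lhx1 (-1.38 ± 0.26), Otx2 (-1.26 ± 0.26) and Foxa2 (-0.97 ± 0.23) fell, while Dkk1, a secreted Wnt antagonist, rose to a median of 82.4 CPM in Bmp plus wells, against 30.7 CPM in Bmp minus wells (0.96 ± 0.14 in the filtered test). Definitive endoderm genes were 1 higher and 1 lower of 16, the faller being Foxa2. Primitive streak genes were 1 higher and 6 lower of 14, with the posterior streak gene Evx1 higher (0.65 ± 0.12).

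Caudal epiblast and neuromesodermal genes were 4 higher and 10 lower of 21. Hoxb1 stood at 0, 18.1 and 85.2 CPM in Bmp plus wells and at 0, 53.4 and 207 CPM in Bmp minus wells (-1.28 ± 0.12, adjusted p = 7.99e-21), and Nkx1-2 (-1.16 ± 0.15) and Sp8 (-1.40 ± 0.20) fell. Wnt5a rose by 0.90 ± 0.16. Neural ectoderm genes were 3 higher and 7 lower of 16. Foxb1, a forkhead factor of the early neural plate, fell most, with 111 of 157 Bmp plus wells and 27 of 143 Bmp minus wells at 0 and means of 4.99 ± 11.2 CPM in Bmp plus wells and 29.3 ± 28.3 CPM in Bmp minus wells (-2.17 ± 0.22, adjusted p = 4.62e-26). Nes (-1.06 ± 0.18) and Sox2 (-0.73 ± 0.15 in the filtered test) fell, and Pax3 rose.

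**Figure D3:**
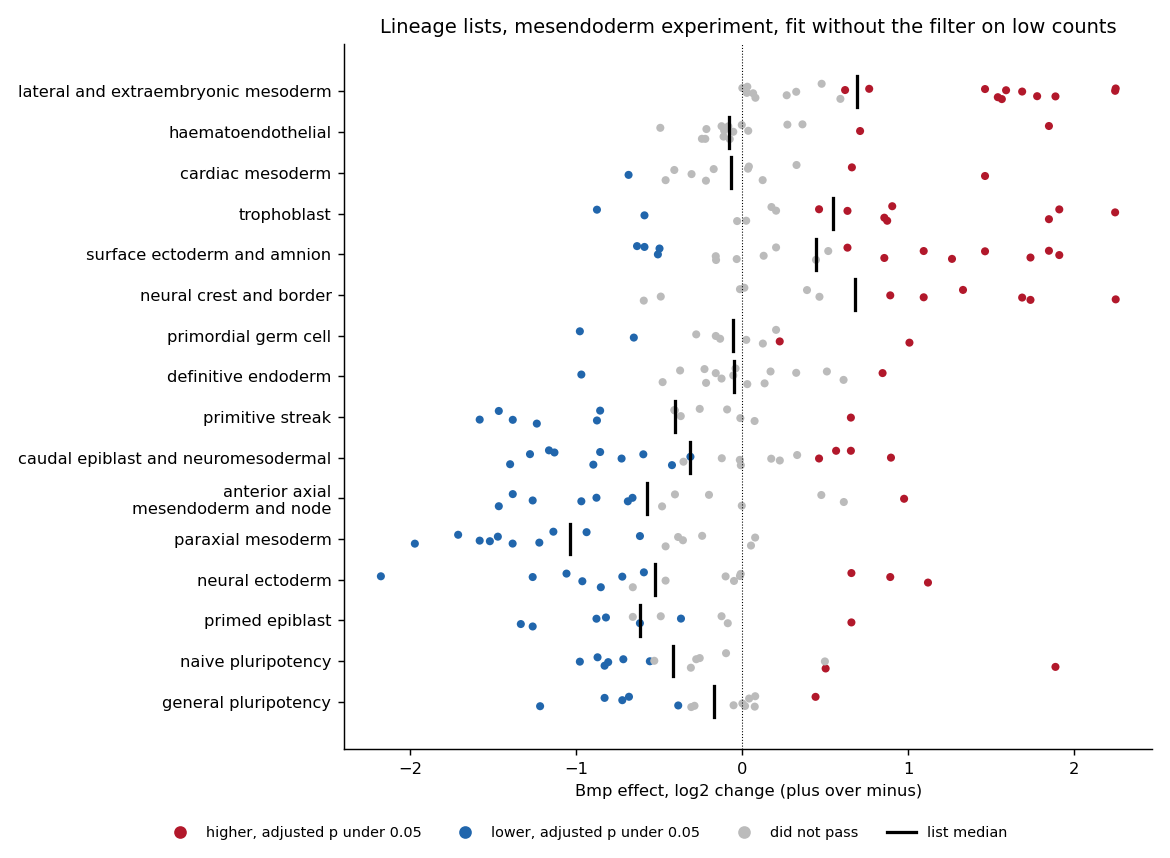
Bmp effect on the members of the lineage lists, as log2 of plus over minus from the test without the filter on low counts; each point is a gene, red if higher and blue if lower at an adjusted p under 0.05, grey if it did not pass, and the black bar is the median of the list. Lateral mesoderm had 11 of 20 members higher and paraxial mesoderm 10 of 16 lower.

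Pluripotency genes were mostly lower where they changed. Naive genes were 2 higher and 6 lower of 14: Nanog averaged 14.9 ± 20.9 CPM in Bmp plus wells and 28.2 ± 33.6 CPM in Bmp minus wells (-0.83 ± 0.18), Klf2 fell (-0.81 ± 0.20) and Klf5 rose to a median of 119 CPM in Bmp plus wells, against 82.2 CPM in Bmp minus wells. General pluripotency genes were 1 higher (Sall4) and 5 lower of 14, and Pou5f1 was at 0.02 ± 0.09 (adjusted p = 0.95). Primed epiblast genes were 1 higher and 6 lower of 11, with Fgf5 at 26 UMIs in Bmp plus wells and 90 in Bmp minus wells (-1.33 ± 0.30).

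Readouts of the other signals moved under Bmp too. Nodal and Activin targets were 1 higher (Smad7, also a BMP target) and 7 lower of 14, with Tdgf1, the Nodal co-receptor Cripto, at -1.22 ± 0.20. Targets of FGF and ERK signalling were 1 higher and 8 lower of 16. Dusp6, a phosphatase that reads out ERK activity, stood at 0, 11.3 and 99.8 CPM in Bmp plus wells and at 0, 29.1 and 136 CPM in Bmp minus wells (-1.13 ± 0.13, adjusted p = 1.11e-14), and Etv1 (-1.05 ± 0.19) and Etv4 (-0.70 ± 0.13) fell.

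Wnt targets were 9 higher and 4 lower of 18. The feedback inhibitors Nkd1, at medians of 218 CPM in Bmp plus wells and 96.1 CPM in Bmp minus wells (0.73 ± 0.08 in the filtered test), Notum (0.75 ± 0.11), Axin2 (0.32 ± 0.06), Rnf43 and Znrf3 rose. The transcription factors Sp5, Sp8 and T fell, as did Nkd2 (-1.29 ± 0.27). Notch targets were 3 higher and 6 lower of 13, RA targets 4 higher and 5 lower of 18 and Hedgehog targets 2 higher and 2 lower of 11.

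Housekeeping classes shifted by small amounts. In the filtered test 65 of 82 ribosomal protein genes fell and none rose (median -0.07, edgeR), beside 15.9% lower over all genes. The lower count was 48 under RLE scaling and 49 with DESeq2. Their share of UMIs was 32.1 ± 1.79% in Bmp plus wells and 32.9 ± 1.94% in Bmp minus wells (permutation adjusted p = 0.00153). Unless said otherwise, the other counts here are from the test without the filter, where 4.17% of all genes rose and 3.43% fell. Of 14 p53 and apoptosis genes 5 fell and none rose. Ccng1 had medians of 290.2 CPM in Bmp plus wells and 359.9 CPM in Bmp minus wells (-0.25 ± 0.04 in the filtered test). Glycolysis genes were 5 higher and 1 lower of 15. Ldha had medians of 493 CPM in Bmp plus wells and 403 CPM in Bmp minus wells (0.29 ± 0.04 in the filtered test), while Ldhb fell. Cell cycle genes were 3 higher and 2 lower of 20. In the filtered test they were 2 higher and 1 lower of 15, beside 13.4% higher and 15.9% lower over all genes. In that test 5 of 10 p53 and apoptosis genes fell and 4 of 9 glycolysis genes rose, with none the other way. Fibroblast or feeder genes, which would mark other cells in the culture, were 1 higher (Col1a1, 1.13 ± 0.21) of 8. The part of the ribosomal and mitochondrial shares in other results was not tested.

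Whether the Bmp effect depended on another signal was tested by adding the product of Bmp with that signal. A product is the Bmp effect where the other signal is plus, less the Bmp effect where it is minus. Wnt had by far the most, with 310 of 2366 genes (13.1%), 128 higher (5.41%) and 182 lower (7.69%). Each joint setting of Bmp and Wnt carried its own barcodelets, so an effect of a tag and this product cannot be told apart. Without the filter on low counts the Wnt split turned round, with 196 higher (1.03%) and 83 lower (0.437%) of 18974 genes (1.47%). In the filtered test RA had 42 (1.78%), 18 higher (0.761%) and 24 lower (1.01%). TgfB had 7 of 2390 (0.293%), 4 higher (0.167%) and 3 lower (0.126%), and Fgf had 2 (0.0837%), 1 higher (0.0418%) and 1 lower (0.0418%). Notch and Shh had 0 with edgeR and 0 with DESeq2. At an unadjusted p under 0.05 in the edgeR test there were 122 of 2366 genes for Notch and 74 of 2366 for Shh. A share of 0.05 is expected at that threshold where no gene differs. With p-values adjusted over all 6 products together the counts were 155 for Wnt, 40 for RA, 20 for TgfB and 8 for Fgf.

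Of the 9 shared targets in the filtered test, 8 rose at each of the 12 levels of the other signals, and Hand1 rose at 11. These levels divide the same wells once per signal, so they are not independent of each other or of the Bmp effect above. Products were called for Bambi, Id2 and Hand1 with Wnt and for Smad7 with Fgf. Over the 12 levels of the other signals the Bmp effect lay between 1.69 and 2.13 for Id1, between 1.37 and 1.75 for Id3, between 1.83 and 2.61 for Msx2, between 1.41 and 1.88 for Msx1 and between 1.58 and 2.10 for Tbx3, with no product called for these. A product that misses the threshold does not show equal effects.

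Hand1 depended most on Wnt among the leading genes (product -2.70 ± 0.39, adjusted p = 2.2e-09). At Wnt plus its medians were 12.3 CPM in Bmp plus wells and 8.6 CPM in Bmp minus wells, an effect of 0.46 ± 0.29 that did not pass (adjusted p = 0.222). At Wnt minus its medians were 96.1 CPM in Bmp plus wells and 0 CPM in Bmp minus wells, an effect of 3.17 ± 0.26 (adjusted p = 1.1e-35). Sp6 went the other way, with an effect of 2.14 ± 0.18 at Wnt plus and 0.44 ± 0.23 at Wnt minus (product 1.70 ± 0.29). Bambi (product -1.03) and Id2 (product -0.85) rose at both levels and more at Wnt minus.

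Sp5 had the product with the smallest p, 1.55 ± 0.18 (adjusted p = 8.7e-15). Its medians were 165 CPM in Bmp plus wells and 204 CPM in Bmp minus wells at Wnt plus, and 25.9 CPM in Bmp plus wells and 109 CPM in Bmp minus wells at Wnt minus. T likewise fell less at Wnt plus (-0.52 ± 0.13) than at Wnt minus (-1.34 ± 0.15; product 0.82 ± 0.20, adjusted p = 0.00111). Of the 310 genes with a Wnt product, 14 had called Bmp effects of opposite sign at the 2 levels. Ccnd1, cyclin D1, was one, at 0.37 ± 0.08 where Wnt was plus and -0.64 ± 0.09 where it was minus. Cdkn1a, the p21 inhibitor of cyclin-dependent kinases, was another, at 0.50 ± 0.08 where Wnt was plus and -0.39 ± 0.09 where it was minus, with a median of 615 CPM in wells plus for both signals. Skp1a, a subunit of SCF ubiquitin ligases, rose at Wnt plus (0.62 ± 0.06) and was at -0.10 ± 0.07 at Wnt minus.

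**Figure D4:**
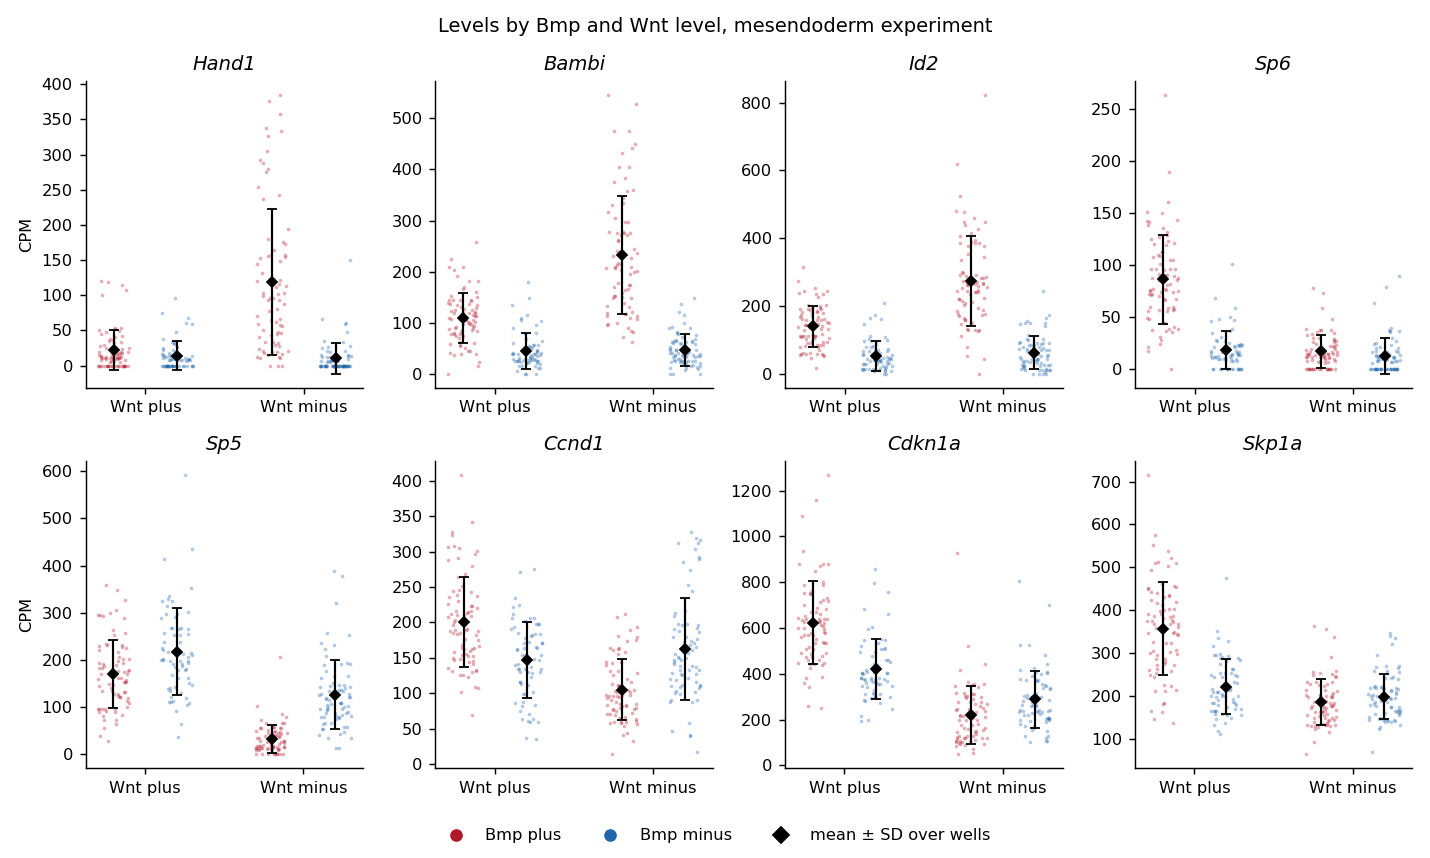
Levels of 8 genes in CPM in every used well, with Wnt plus wells on the left of each panel and Wnt minus wells on the right, and Bmp plus (red) left of Bmp minus (blue) in each; points are wells and diamonds are the mean ± SD. Hand1 stands highest in wells that were Bmp plus and Wnt minus, with a median of 96.1 CPM, and Cdkn1a in wells plus for both, with a median of 615 CPM.

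RA changed the Bmp effect on Slc2a1, the glucose transporter GLUT1, which fell at RA plus (-0.41 ± 0.12) and rose at RA minus (0.80 ± 0.14; product -1.21 ± 0.18, adjusted p = 1.86e-07). Its lowest median, 58.2 CPM, was in wells minus for both. Meis2, a homeobox gene induced by RA, was at 0.23 ± 0.14 at RA plus and fell at RA minus (-1.01 ± 0.18). Rspo3 fell less at RA plus (-0.64 ± 0.24) than at RA minus (-1.74 ± 0.16; product 1.10 ± 0.29).

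With TgfB, Sox2 was at 0.15 ± 0.25 at TgfB plus and fell at TgfB minus (-1.20 ± 0.18; product 1.35 ± 0.31, adjusted p = 0.0265). Rspo3 had a TgfB product of 1.18 ± 0.28. With Fgf, Smad7 rose by 1.71 ± 0.12 at Fgf plus and by 0.98 ± 0.13 at Fgf minus (product 0.73 ± 0.17, adjusted p = 0.0201), and Zfp260, a zinc finger gene, had a product of -0.85 ± 0.17.

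The same Bmp term was then compared with 2 other experiments of the series. The mixed experiment includes 64 treated wells that started from mesendoderm, and the germ layer experiment holds 32 conditions given for 24 h to cells with no prior induction, with Bmp4 as plus and Dorsomorphin as minus. Each experiment is its own library, so the starting state, the library and the depth cannot be told apart. Against the mixed experiment, 28 of 3235 genes (0.866%) differed, 19 with a higher effect here (0.587%) and 9 with a lower one (0.278%). Against the germ layer experiment 711 of 3384 (21%) differed, 306 higher here (9.04%) and 405 lower (12%).

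Across 2321 genes the Bmp effects correlated with those of the mixed experiment at Pearson r = 0.817 and Spearman rho = 0.530. Against the germ layer experiment r was 0.687 and rho 0.364 over 2326 genes. Genes are not independent replicates, and no test is given. Of 679 genes called here and measured in the mixed experiment, 549 (80.9%) had the same sign there. Of these 679, 233 (34.3%) were also called in the same direction, which is 61.5% of the 379 genes called in the mixed experiment, and 4 were called in the opposite one. For the germ layer experiment 495 of 681 (72.7%) had the same sign. Of these 681, 352 (51.7%) were called in the same direction, which is 25.4% of the 1387 genes called there. Another 82 were called in the opposite one. Genes called in the other experiment were 379 of the 2321 shared with the mixed experiment and 1387 of the 2326 shared with the germ layer experiment. The larger 51.7% thus stands beside a larger share of all genes called.

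Core targets rose in each experiment. Id1 rose by 1.87 ± 0.08 here and by 1.96 ± 0.11 in the mixed wells, a difference of -0.07 (95% interval -0.33 to 0.19). Msx2 differed by 0.13 (-0.22 to 0.48), with effects of 2.24 ± 0.12 here and 2.16 ± 0.12 in the mixed wells. Hand1 rose by 2.20 ± 0.20 here and by 2.57 ± 0.38 in the mixed wells, each fitted alone. In the joint fit its difference had the opposite sign, 0.08 (-0.65 to 0.81), and did not pass. Tbx3 rose more here than in the mixed wells (1.88 ± 0.09 against 1.25 ± 0.10; difference 0.65 ± 0.13), as did Smad7 (1.38 ± 0.09 against 0.80 ± 0.08; difference 0.58 ± 0.12).

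Wnt6 and Rspo3 were among the genes that differed from the germ layer experiment. Wnt6 fell here (-0.66 ± 0.10) and rose there (1.41 ± 0.21), a difference of -2.15 ± 0.16 (adjusted p = 1.14e-27). Rspo3 fell here (-1.40 ± 0.14) and was at 0.46 ± 0.22 there, a difference of -1.96 ± 0.23. Tbx3 and Hand1 rose less here, Tbx3 by 1.88 ± 0.09 against 2.99 ± 0.13 there and Hand1 by 2.20 ± 0.20 against 3.62 ± 0.26, while Id2 rose more here (1.81 ± 0.10 against 0.96 ± 0.13). Id1 differed by 0.27 (-0.01 to 0.55), which did not pass, and Lefty2 by 0.00 (-0.50 to 0.51).

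**Figure D5:**
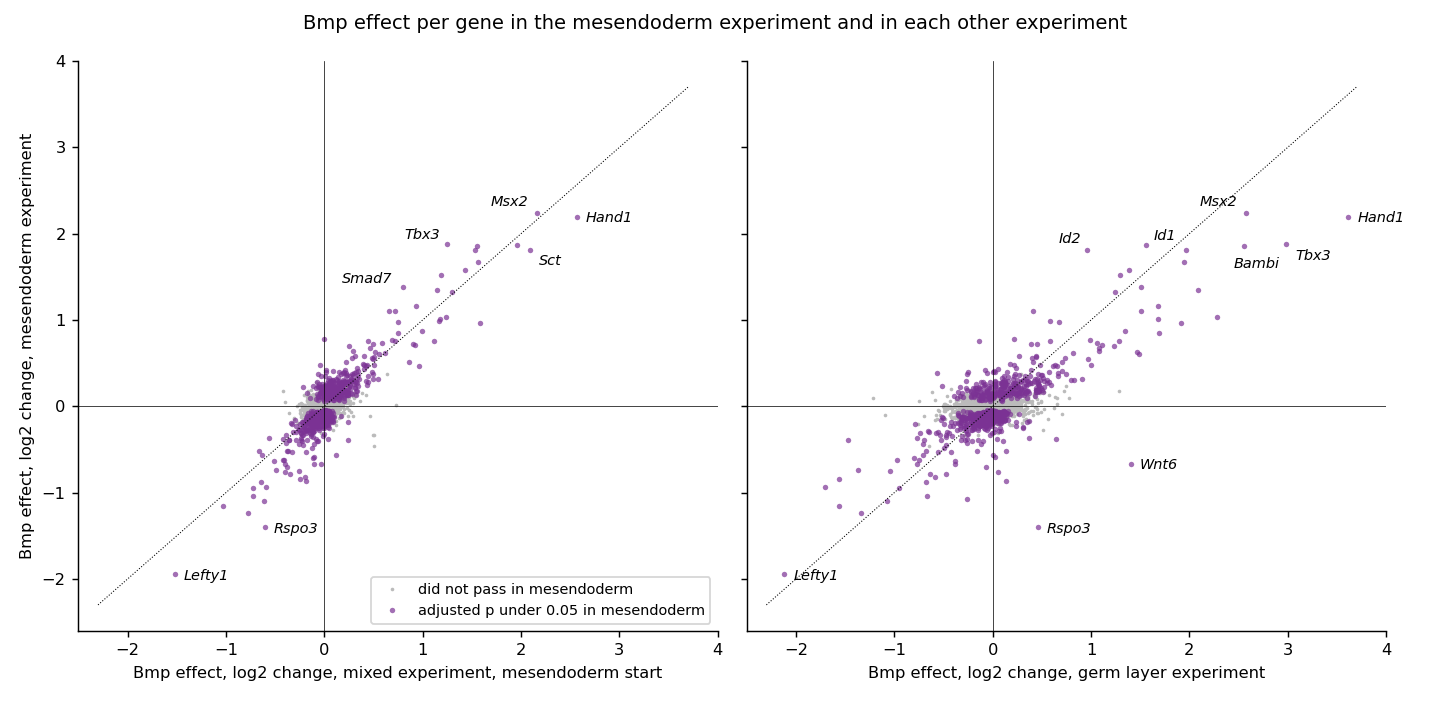
Bmp effect of each gene, as log2 of plus over minus, in the mesendoderm experiment (vertical axis) and in the mixed (left panel) or germ layer experiment (right panel); purple points passed in the mesendoderm experiment, grey points did not, and the dotted line marks equal effects. Tbx3 stands at 1.88 in the mesendoderm, 1.25 in the mixed and 2.99 in the germ layer experiment, and Wnt6 at -0.66 in the mesendoderm and 1.41 in the germ layer experiment.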

How the data were processed

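Single-cell transcriptome and barcodelet libraries of the mesendoderm experiment were used, with those of the mixed and germ layer experiments for comparison. The deposited matrices hold raw UMI counts per gene and cell, and the authors deposited barcodelet counts per cell, the fraction taken by the top barcodelets, cell assignments and design tables. Tools listed in the submitters' processing notes are HTSeq 0.9.1, STAR 2.5.2b and Cell Ranger 1.3.1, with the build mm10. Roles, the assignment rule and the strand of counting are not given in the sources used here. Of 27998 gene rows, 27645 were found in GENCODE vM21, the source of coordinates.

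Counts of passed cells were summed per well. Wells with at least 5 cells were fitted with edgeR 4.0.16 in R 4.3.3 (TMM, filterByExpr, quasi-likelihood test, 2-sided, Benjamini-Hochberg), with each signal coded 0.5 or -0.5. CPM are counts over the UMIs of the well. The fits of the Bmp term and of its product with Wnt were tested on simulated counts of genes that passed the filter. The test without the filter was not simulated. Members, lists and tests were chosen with earlier results of these data known. Named genes were the 10 with the largest changes each way among those called with a mean of at least 10 CPM, up to 4 members of each list, the genes of the BMP pathway lists, the 4 smallest p of each product and the 4 smallest each way of each comparison of experiments; the description of lists from the test without the filter, and of genes outside the rule, was chosen after values were seen. Wells with the same replicate number did not deviate together (mean correlation -0.0002), so replicates were not treated as pairs. Alternatives were other scalings and tools, filters, cell minimums, assignments, covariates and left-out replicates. Bulk libraries were not used.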

Additional observations from a re-analysis of the deposited data

Results flagged for a closer look

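The results here were picked out because the Bmp effect differed by a test of the difference itself, either between the levels of another signal or between experiments. No explanation is weighed.

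Between RA plus and RA minus the Bmp effect differed by -1.21 for Slc2a1, 0.31 for Cox7a2, 1.24 for Meis2 and -0.63 for Slc38a4. Cox7a2 fell at RA minus (-0.40 ± 0.04) and was at -0.09 ± 0.04 at RA plus. Slc38a4 rose by 0.43 ± 0.09 at RA plus and by 1.07 ± 0.08 at RA minus.

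Between Wnt plus and Wnt minus it differed by 1.55 for Sp5, 1.01 for Ccnd1, 0.72 for Skp1a and 0.89 for Cdkn1a. Between TgfB plus and TgfB minus it differed by 1.35 for Sox2, 1.18 for Rspo3, -0.89 for Cdkn1c and 0.64 for Mkrn1. Cdkn1c, the p57 inhibitor of cyclin-dependent kinases, was at 0.01 ± 0.16 at TgfB plus and rose by 0.90 ± 0.14 at TgfB minus. Between Fgf plus and Fgf minus it differed by -0.85 for Zfp260 and 0.73 for Smad7.

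Between the mesendoderm and the mixed experiment the Bmp effect differed by 0.58 for Smad7, 0.65 for Tbx3, 0.44 for Fam60a, 0.52 for Hspb1, -0.65 for Gm1673, -0.42 for Smc6, -1.14 for Tcf15 and -0.69 for Igfbp4. Between the mesendoderm and the germ layer experiment it differed by 0.82 for Adk, 0.63 for Ppid, 0.72 for Gja1, 0.48 for Pkm, -2.15 for Wnt6, -1.96 for Rspo3, -1.09 for Tbx3 and -1.08 for Anxa3.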

How the results depend on the processing

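The 682 calls became 1442 without the filter on low counts (791 higher, 651 lower), 244 with wells of at least 10 cells (138 higher, 106 lower) and 205 under a stricter assignment (108 higher, 97 lower). Counts summed per combination gave 473 higher genes, and Bmp without the other signals 237 lower ones. Without each replicate in turn the calls numbered 482 to 582. With the replicate number as a block there were 716; the numbers do not pair the wells. A block by the third barcodelet, chosen after seeing the data, gave 727. RA products (42) numbered 1 with at least 10 cells, 13 to 23 without a replicate, 0 under the stricter assignment and 20 without the other signals. Wnt products (310) numbered 34, 126 to 268 and 23 under the first 3 of these. TgfB products (7) numbered 3 without the filter, 13 with at least 3 cells, 0 with at least 10, 0 to 8 without a replicate, 15 with all pairwise products, 0 under the stricter assignment and 0 per combination. Fgf products (2) numbered 1 with at least 3 cells, 0 with at least 10, 0 to 2 without a replicate, 1 with cells per well as a covariate, 0 per combination and 1 without the other signals. Differences from the mixed experiment (28) numbered 52 with DESeq2, 11 with at least 10 cells and 69 from separate fits, and those from the germ layer experiment (711) numbered 470 with at least 10 cells. Under the stricter assignment 2 named genes turned round, Lamb1 (0.16) and Lamc1 (0.12). For the Bmp effect, 932 of 1021 values over 91 named genes kept direction and side of the threshold and 87 kept direction only. These 91 are not all named genes, as 62 were named from the filtered test and 85 from the test without the filter. Alternatives that keep the filter leave out genes with low counts, so many low genes of the lists were not checked in this way. For products 270 of 346 values over 22 genes kept both, and for differences between experiments 91 of 102 over 21 genes. The causes were not tested, except that fewer wells enter where wells are left out. Low UMI counts per well limit single-well values.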

Other observations

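Imprinted genes, expressed from 1 parental copy, were looked at after their values were seen, so no test is given for the group. Of 15 tested, 12 were higher and 1 lower in Bmp plus wells, with a median of 0.62, beside 13.4% higher over all genes; the counts were 12 and 0 under RLE and DESeq2. Peg10, a retrotransposon-derived gene needed in the placenta, stood at 36.1, 153 and 375 CPM (lowest, median and highest) in Bmp plus wells and at 0, 68.3 and 252 CPM in Bmp minus wells (1.11 ± 0.08, edgeR adjusted p = 7.23e-36). The insulin-like growth factor gene Igf2 rose by 1.03 ± 0.15 and its neighbour H19, a noncoding RNA, by 1.35 ± 0.26. Phlda2, a growth regulator of the placenta, rose by 1.01 ± 0.09, Grb10 by 0.72 ± 0.08 and Mest by 0.76 ± 0.14. Meg3 (-0.03 ± 0.07) and Snrpn (0.06 ± 0.08) did not pass, and Kcnq1ot1 fell by 0.13 (SE 0.05).

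Other risers, likewise named after their values were seen, included Dusp9, a phosphatase of ERK, with medians of 152 CPM in Bmp plus wells and 85.9 CPM in Bmp minus wells (0.88 ± 0.08). The semaphorin and VEGF receptor Nrp2 rose by 0.98 ± 0.11, the homeobox gene Tlx2 by 0.99 ± 0.13 and the ubiquitin ligase gene Rnf128 by 1.32 ± 0.11.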
